A study of Homo sapiens with 6 samples.

Results

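The 10 genes described here are transcription and splicing factors that set how epithelial or how mesenchymal a cell is. The 5 drivers of the epithelial-mesenchymal transition (EMT) are SNAI1, SNAI2, ZEB1, ZEB2 and TWIST1, and the 5 epithelial guardians are GRHL2, OVOL1, OVOL2, ESRP1 and ESRP2. They were taken by symbol from the rows of the deposited gene table that lie on the primary chromosomes, and all 10 of the 10 were found among its 64253 genes. Each had enough reads to be tested, together with 20992 genes in all. RNA was sequenced from H69, a line of human intrahepatic cholangiocytes (the epithelium of the bile ducts) immortalised with SV40 large T antigen. Both groups were this line at passages 30 to 32. The cells of 3 libraries received vehicle, and those of the other 3 were kept for 16 h with recombinant human TGF-beta (10 ng/ml). The labels name no separate cultures for the replicates. Each p-value therefore measures only how these libraries scatter, which may be technical. A single immortalised line at 1 time point limits the model.

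In an epithelial cell, cadherin junctions, tight junctions and a set of epithelial splice forms are held in place by GRHL and OVOL transcription factors and by the ESRP splicing regulators. SNAI, ZEB and TWIST proteins repress junction genes, largely by binding E-box sequences in their promoters, and TGF-beta is among the best known inducers of these repressors. Both sides restrain each other: GRHL2 and OVOL2 repress ZEB1, ZEB1 represses ESRP and OVOL genes, and the microRNAs of the miR-200 family target ZEB1 and ZEB2 and are repressed by them in turn.

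The libraries held 37205862 to 54160521 reads in genes, so that 1 CPM (a count scaled to library size by the trimmed mean of M values) was worth 35.8 to 56.3 reads. The first principal component (74.4% of the variance) separated the conditions. The second component (11.6%) placed vehicle replicate 1 at 36.6, away from vehicle replicates 2 and 3 at -14.92 and -18.72, and results that it changes are given with and without it. Across genes, log2 CPM correlated at 0.9965 between vehicle replicates 2 and 3. Vehicle replicate 1 correlated with them at 0.9917 and 0.9909. An adjusted p-value without vehicle replicate 1 leaves out its scatter and rests on 2 vehicle libraries that lay close together. Of the 11 cholangiocyte markers, 8 were tested, 2 were called higher and 3 lower (median log2 fold change -0.15). KRT7, a biliary keratin, was high in every library, whereas CFTR had 0 reads in all and SCTR stayed under 1 CPM in all. The summed level of the 11 markers was 2322 to 2872 CPM in vehicle and 3945 to 4333 CPM in TGF-beta libraries. That sum was carried by KRT7 (1538 to 2966 CPM) and SLC4A2 (363 to 677 CPM), while SOX9, a biliary transcription factor, fell from 20.9 to 6.20 CPM (edgeR adjusted p = 0.000572), EPCAM and CDH1 fell as given further on, and KRT19 did not pass. Markers of other liver cells summed to 88.2 to 101.1 CPM for hepatocytes, 10.4 to 24 CPM for endothelium and 11.4 to 15.7 CPM for immune cells over the 6 libraries, with ALB, CDH5 and PTPRC under 1 CPM in all. The hepatocyte sum lay in SERPINA1 (60.7 and 72.8 CPM in vehicle and TGF-beta libraries, called higher) and CPS1 (30.1 and 26.2 CPM, called lower), the endothelial sum in KDR (19.2 and 9.65 CPM, called lower), and the immune sum in CD14 (5.52 and 2.49 CPM, called lower) and CD68 (9.95 and 9.65 CPM, not called). In bulk RNA, fewer cells of a type and less RNA per cell cannot be told apart. Genes with an adjusted p below 0.05 were called (edgeR quasi-likelihood, adjusted over all 20992 genes), and 40.1% of all genes were called, 19.7% (4145) higher and 20.4% (4278) lower. Scaling by library totals alone moved the median log2 fold change of all genes from -0.01 to -0.14 and this split to 2698 higher and 7282 lower. Without vehicle replicate 1, 21781 genes were tested, 5428 were higher and 5556 lower, so calls became more frequent over all genes.

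The SNAI drivers moved most. With TGF-beta, SNAI1, SNAI2, ZEB2 and, on the guardian side, OVOL1 were higher, TWIST1 and GRHL2 were lower, and ZEB1, OVOL2, ESRP1 and ESRP2 did not pass the test. That is 4 higher and 2 lower of 10, where the shares over all genes were 19.7% and 20.4%. The median log2 fold change was 0.58 over the drivers, -0.21 over the guardians and -0.01 over all genes tested. The groups did not overlap for 4 members in the higher and 3 in the lower direction, against 25.4% and 26.9% of all genes, or 7 of 10 against 52.3% in either direction. SNAI1, SNAI2 and OVOL1 were called and at least 2-fold higher, as were 4.78% of all genes, and no member was called and at least 2-fold lower, as were 3.59%.

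**Figure D1:**
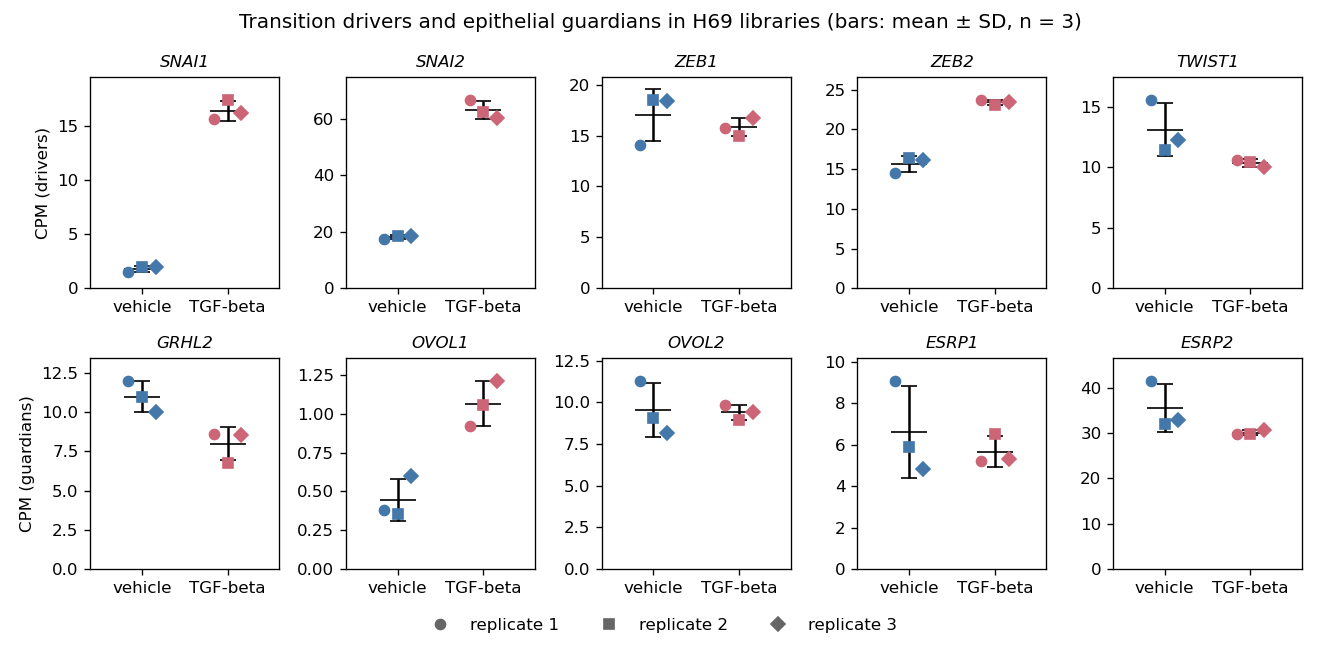
Level of each member in CPM (vertical axes from 0, scaled per gene) in the 3 vehicle (blue) and 3 TGF-beta (red) libraries; the marker shape gives the replicate number and the bars the mean ± SD. SNAI1 and SNAI2 separate widely, whereas the 2 conditions overlap for ZEB1, OVOL2 and ESRP1.

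SNAI1 (ENSG00000124216, hg38 chr20:49982999-49988886) encodes Snail, a zinc-finger repressor of E-cadherin that acts early in EMT. Its level was 1.5, 1.99 and 1.95 CPM in vehicle replicates 1, 2 and 3, and 15.6, 17.4 and 16.3 CPM in TGF-beta replicates 1, 2 and 3. Every TGF-beta library lay far above every vehicle library. SNAI1 rose by a log2 fold change of 3.17 (SE 0.11, 95% interval 2.93 to 3.41, edgeR adjusted p = 9.55e-09), which is 8.98-fold. Its change ranked 98 from the highest among the genes tested, above 99.5% of them.

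SNAI2 (chr8:48917690-48921740) encodes Slug, a close relative of Snail. Its level was 17.3, 18.4 and 18.6 CPM in the vehicle libraries and 66.7, 62.3 and 60.4 CPM in the TGF-beta libraries. The replicates were tight in both conditions and did not overlap. SNAI2 rose 3.49-fold (log2 fold change 1.80, SE 0.06, edgeR adjusted p = 4.67e-09), a change above that of 98.2% of genes. Read per gene length, in the authors' RPKM, SNAI1 stood at 0.117, 0.147 and 0.142 of SNAI2 within the vehicle libraries and at 0.317, 0.378 and 0.365 within the TGF-beta libraries. SNAI2 thus stayed the more abundant transcript of the pair while the gap narrowed.

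The pair of ZEB genes, large zinc-finger homeodomain repressors, differed from each other. ZEB2 (chr2:144388001-144524580) was at 14.5, 16.3 and 16.1 CPM in vehicle and 23.7, 23.1 and 23.4 CPM in TGF-beta libraries, with no overlap. It rose by a log2 fold change of 0.58 (SE 0.06, edgeR adjusted p = 4.69e-05), or 1.49-fold. ZEB1 (chr10:31318495-31529814) was at 14.1, 18.5 and 18.4 CPM in vehicle and 15.7, 15 and 16.7 CPM in TGF-beta libraries. Vehicle replicate 1 lay below all the others, and the ZEB1 groups overlapped. Its log2 fold change was -0.11 (95% interval -0.34 to 0.13, edgeR adjusted p = 0.453). Without vehicle replicate 1, it was -0.22 and passed the test (edgeR adjusted p = 0.00346). In RPKM within a library, ZEB2 stood at 0.677, 0.580 and 0.575 of ZEB1 in vehicle and at 0.990, 1.01 and 0.917 of it with TGF-beta. ZEB2 made up 37.9% ± 2.18 (SD, n = 3) of the summed ZEB level in vehicle and 49.3% ± 1.30 with TGF-beta, and the sum itself was 1.2, 1.47 and 1.48 RPKM against 1.5, 1.44 and 1.52 RPKM. The change in composition was larger than the spread between replicates, and the RPKM sums overlapped. RPKM lacks the scaling by the trimmed mean of M values that is used for CPM. Those scaling factors were 1.05, 1.04 and 1.05 in vehicle and 0.961, 0.959 and 0.951 with TGF-beta. RPKM therefore reads lower against CPM in the TGF-beta libraries, and whether the ZEB sums separate depends on the scaling. ZEB1 overlaps its antisense gene ZEB1-AS1, and without a stated strand setting their reads may mix.

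The ZEB transcripts are the members that the miR-200 family is known to target, so the family's mature sequences are shown with the seed, bases 2 to 8, in capitals (RefSeq, GRCh38.p14). The 5 microRNAs fall into 2 seed groups that differ by 1 base.
hsa-miR-200b-3p: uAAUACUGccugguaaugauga
hsa-miR-200c-3p: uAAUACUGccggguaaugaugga
hsa-miR-429: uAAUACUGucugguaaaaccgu
hsa-miR-200a-3p: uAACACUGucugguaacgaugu
hsa-miR-141-3p: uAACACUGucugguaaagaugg

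The DNA letters that pair with these seeds, CAGTATT for the first group and CAGTGTT for the other, were searched on the transcript strand in 1 annotated 3′ UTR per gene, that of the transcript with the longest coding sequence (GENCODE v29, GRCh38). Over 19050 genes, 14.1% held the first and 15.9% the other. ZEB1 held 6 and 3 of them in 2549 bases (3.53 matches per kb), and ZEB2 held 5 and 4 in 5370 bases (1.68 per kb). ESRP1 held 2, SNAI2 and GRHL2 held 1 each, and SNAI1, TWIST1, OVOL1, OVOL2 and ESRP2 held 0. The matches thus sat mostly in the ZEB genes, both the one that rose and the one that did not pass the test. A match is a description of letters, not a site shown to be used. An example of each kind in each ZEB gene follows on the transcript strand, with the match in capitals: ZEB1 at chr10:31527618-31527647 and chr10:31528031-31528060 on the plus strand, ZEB2 at chr2:144389045-144389074 and chr2:144388703-144388732 on the minus strand.
ZEB1, miR-200b/c and miR-429 match: attgttttatcttatCAGTATTatcactct
ZEB1, miR-200a and miR-141 match: caaaatcatcagaatCAGTGTTtgtgattg
ZEB2, miR-200b/c and miR-429 match: cgcactaccatacatCAGTATTtttattat
ZEB2, miR-200a and miR-141 match: agtgccatccttgtaCAGTGTTaagagggt

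The libraries do not measure mature microRNAs. Of 14 non-coding genes of these loops, 1 was tested. ZEB1-AS1, transcribed opposite ZEB1, fell from 3.51 ± 0.39 to 2.36 ± 0.03 CPM (SD, n = 3; log2 fold change -0.58, edgeR adjusted p = 0.00357). The host and precursor genes of the miR-200 family and MIR205HG had from 0 to 2 reads per library, too few for any comparison.

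TWIST1 (chr7:19020991-19117672), a basic helix-loop-helix factor, went the other way from the SNAI genes. It was at 15.6, 11.4 and 12.3 CPM in vehicle and 10.6, 10.5 and 9.99 CPM in TGF-beta libraries. The groups did not overlap, and vehicle replicate 1 was the highest library. TWIST1 fell by 0.33 on the log2 scale (SE 0.11, edgeR adjusted p = 0.0343). Without vehicle replicate 1 the log2 fold change was -0.19 (edgeR adjusted p = 0.0270). The call was lost without TGF-beta replicate 1, 2 or 3 (edgeR adjusted p = 0.0860, 0.0967 and 0.125). In RPKM, TWIST1 stood at 1.01, 0.698 and 0.741 of SNAI2 in vehicle libraries and at 0.179, 0.188 and 0.186 of it with TGF-beta.

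Among the guardians, GRHL2 (chr8:101492432-101669726), a Grainyhead transcription factor that keeps E-cadherin and other junction genes on, was the one that fell. Its level was 12.0, 10.9 and 9.99 CPM in vehicle and 8.59, 6.75 and 8.57 CPM in TGF-beta libraries. The lowest vehicle library lay above the highest TGF-beta library. GRHL2 fell by 0.46 on the log2 scale (SE 0.11, 95% interval -0.70 to -0.22, edgeR adjusted p = 0.00638). This call held in all 14 alternative analyses, and the value was -0.40 without vehicle replicate 1. In RPKM, SNAI2 was 3.84, 4.45 and 4.94 times GRHL2 in vehicle and 20.6, 24.5 and 18.7 times GRHL2 with TGF-beta.

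OVOL1 (chr11:65787022-65797219), a zinc-finger repressor that holds the epithelial state, rose, but from a very low level. It had 16, 20 and 31 reads in vehicle and 33, 48 and 47 reads in TGF-beta libraries, which is 0.382, 0.356 and 0.598 CPM against 0.924, 1.06 and 1.21 CPM. The groups did not overlap. OVOL1 rose by a log2 fold change of 1.25 (SE 0.24, 95% interval 0.71 to 1.79, edgeR adjusted p = 0.00222), with a wide interval at this depth. It was too low to be tested with a filter of 1 CPM in 3 libraries or in limma on RPKM. Its antisense neighbour RP11-770G2.5 was at 0.104 CPM in vehicle and 0.327 CPM after TGF-beta (log2 fold change 1.67, edgeR adjusted p = 0.00679). As no source used here gives the strand setting, reads of the overlapping pair cannot be told apart.

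OVOL2 (chr20:17956979-18059188), the related repressor of ZEB1, was at 11.3, 9.09 and 8.18 CPM in vehicle and 9.85, 8.96 and 9.42 CPM in TGF-beta libraries. All 3 TGF-beta libraries fell within the vehicle range. Its log2 fold change was -0.01 (95% interval -0.27 to 0.24, edgeR adjusted p = 0.934) and 0.12 without vehicle replicate 1 (edgeR adjusted p = 0.230). The OVOL2 span overlaps the more abundant SNX5 (164 and 162 CPM) and MGME1 (85.6 and 73.6 CPM).

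The ESRP proteins bind RNA and set epithelial exon choice in CD44, FGFR2 and other transcripts. ESRP1 (chr8:94641074-94707466) was at 9.09, 5.91 and 4.82 CPM in vehicle and 5.21, 6.51 and 5.29 CPM in TGF-beta libraries. Vehicle replicate 1 was the highest of the 6 and the groups overlapped. The log2 fold change was -0.21 (95% interval -0.80 to 0.39, edgeR adjusted p = 0.557), and 0.086 without vehicle replicate 1 (edgeR adjusted p = 0.548). ESRP2 (chr16:68229111-68238102) was at 41.6, 31.9 and 32.9 CPM in vehicle and 29.8, 29.9 and 30.7 CPM in TGF-beta libraries. Its groups did not overlap, yet it missed the threshold with a log2 fold change of -0.23 (95% interval -0.45 to -0.02, edgeR adjusted p = 0.0824). Without vehicle replicate 1 the value was -0.10 (edgeR adjusted p = 0.0808). It was called lower with library totals alone (log2 fold change -0.36, edgeR adjusted p = 0.0154), without a filter, in limma on log2(RPKM + 0.1) and without vehicle replicate 2 (-0.30, edgeR adjusted p = 0.0324). ESRP2 overlaps NFATC3 (56.0 and 57.0 CPM) and the antisense RP11-96D1.11 (26.6 and 26.9 CPM).

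**Figure D2:**
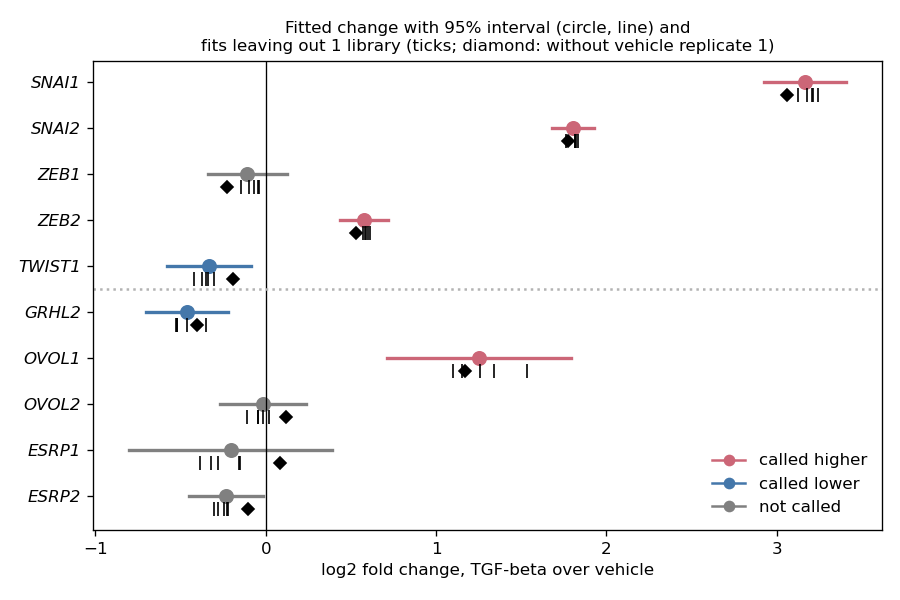
Fitted log2 fold change of each member, TGF-beta over vehicle (horizontal axis; circle and line: estimate and 95% interval from all 6 libraries; ticks: fits leaving out 1 library; diamond: without vehicle replicate 1). Drivers stand above the dotted line and guardians below it. OVOL2 and ESRP1 change sign without vehicle replicate 1, at 0.12 and 0.086.

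Levels of different genes were ordered by RPKM, which scales counts to a single fixed length per gene. The transcripts expressed may differ from that length, and reads of overlapping genes may mix, so the order and the sums below are approximate. The vehicle cells held SNAI2 at 3.48, TWIST1 at 2.82, ESRP2 at 2.80, OVOL2 at 1.92 and ZEB1 at 0.862 RPKM. Next came GRHL2 at 0.795, ESRP1 at 0.594, ZEB2 at 0.521, SNAI1 at 0.472 and OVOL1 at 0.0508 RPKM. Only ESRP2 and OVOL2, OVOL2 and ZEB1, and SNAI1 and OVOL1 were neighbours whose libraries did not overlap. With TGF-beta the order was SNAI2 at 11.4, SNAI1 at 4.03, ESRP2 at 2.24, TWIST1 at 2.11, OVOL2 at 1.79, ZEB1 at 0.755, ZEB2 at 0.734, GRHL2 at 0.543, ESRP1 at 0.480 and OVOL1 at 0.114 RPKM. There ZEB1 and ZEB2 overlapped, as did GRHL2 and ESRP1, and all other neighbours were separate. SNAI1 went from rank 9 to rank 2, while drivers and guardians were present together in both conditions.

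**Figure D3:**
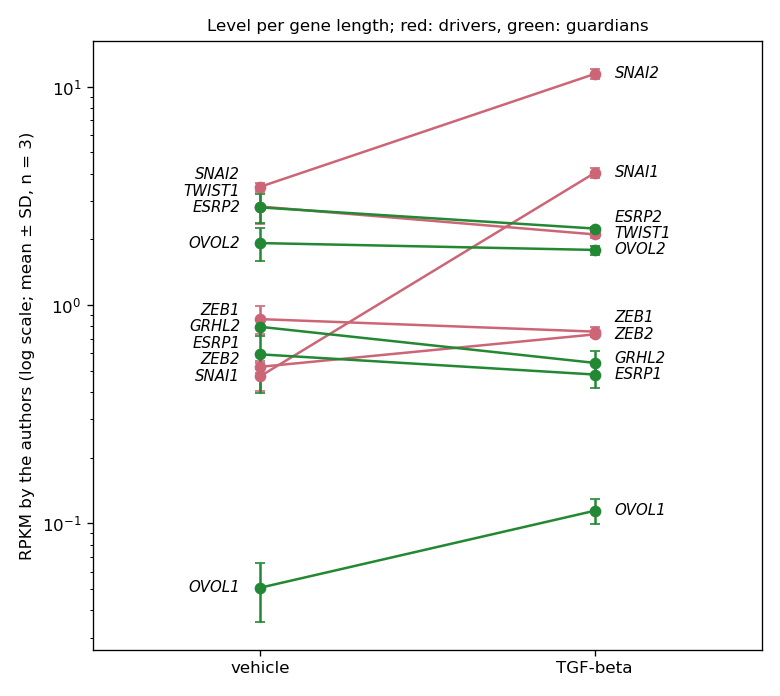
Mean RPKM ± SD (log axis, n = 3 libraries) of each member in vehicle and TGF-beta cells; red lines are drivers and green lines guardians. SNAI1 crosses 7 other members on its way from 0.472 to 4.03 RPKM.

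Summed over the 5 drivers, the level was 8.29, 7.95 and 8.22 RPKM in vehicle and 19.6, 19.2 and 18.4 RPKM in TGF-beta libraries. The 5 guardians summed to 7.30, 5.69 and 5.49 RPKM and to 5.23, 5.06 and 5.20 RPKM. The ratio of drivers to guardians was 1.14, 1.40 and 1.5 in vehicle and 3.75, 3.79 and 3.53 with TGF-beta. Without SNAI1 and SNAI2, the same ratio was 0.625, 0.690 and 0.753 against 0.701, 0.707 and 0.681, and the groups overlapped. The 2 SNAI genes made up 48.5% ± 3.05 of the summed driver level in vehicle and 81.1% ± 0.36 with TGF-beta (SD, n = 3). By mean, SNAI2 ranked highest in both conditions, although in vehicle it overlapped TWIST1, which stood slightly above it in vehicle replicate 1. Ratios of single genes within a library differed from pair to pair. SNAI1 over OVOL2 was 0.171, 0.283 and 0.307 in vehicle and 2.04, 2.51 and 2.23 with TGF-beta, and did not overlap. ZEB1 over ESRP1 was 0.873, 1.77 and 2.15 against 1.70, 1.30 and 1.78, and overlapped. ESRP2 over ESRP1 was 4.01, 4.74 and 5.98 against 5.02, 4.02 and 5.09, and overlapped as well.

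The vehicle libraries were not alike in these genes. Vehicle replicate 1 was the lowest of the 3 for SNAI1, SNAI2, ZEB1 and ZEB2 and the highest for TWIST1, GRHL2, OVOL2, ESRP1 and ESRP2. Against the mean of replicates 2 and 3, it stood at 0.763 for SNAI1, 0.763 for ZEB1, 1.31 for OVOL2 and 1.69 for ESRP1. It was also the lowest for 9 of 10 other EMT factors (90%) and 11 of 15 mesenchymal genes (73.3%), and the highest for 18 of 22 epithelial genes known to be repressed by SNAI and ZEB (81.8%). Over all genes, it was the highest for 40% and the lowest for 41.4%. The labels set this library apart in no way. Sums and ratios in RPKM are given library by library, so that its values can be read apart from the rest.

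**Figure D4:**
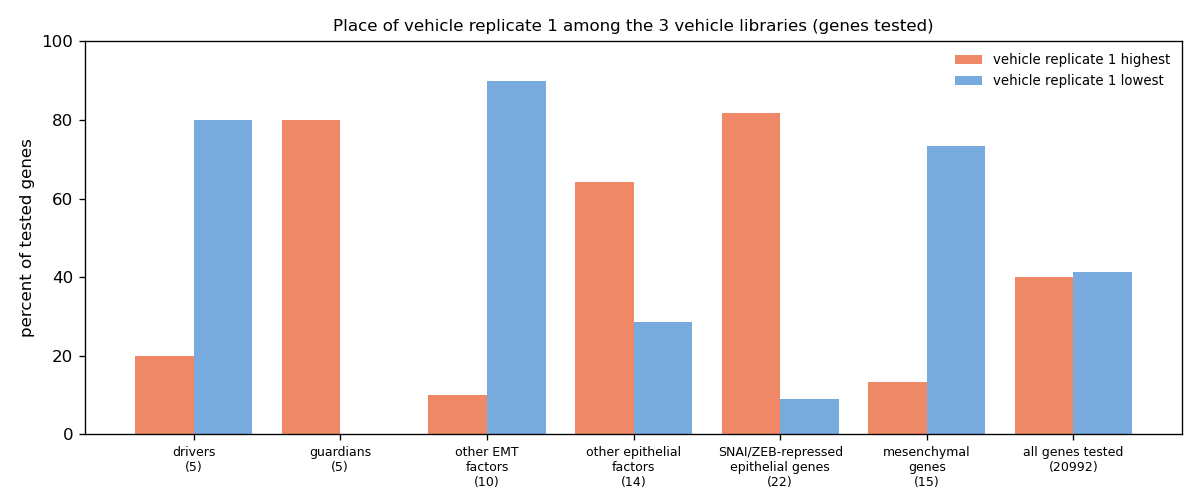
Percent of tested genes (vertical axis) in which vehicle replicate 1 was the highest (orange) or the lowest (blue) of the 3 vehicle libraries, for the members and 4 lists, with the number of genes in brackets. It was the highest in 4 of 5 guardians and the lowest in 4 of 5 drivers, against 40% and 41.4% of all genes.

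Relatives of the drivers moved in both directions. Of 14 other EMT transcription factors, 10 were tested, 5 were higher and 2 lower (median log2 fold change 0.29). Among all genes 19.7% were called higher and 20.4% lower, so the lower count was near that share. TCF4, a basic helix-loop-helix factor, rose from 1.66 ± 0.47 to 2.92 ± 0.33 CPM (log2 fold change 0.81, edgeR adjusted p = 0.00708). TWIST2 rose (0.33, edgeR adjusted p = 0.0166), while its paralog TWIST1 fell. The TWIST2 call was lost without TGF-beta replicate 2 (edgeR adjusted p = 0.0795) and with library totals alone (edgeR adjusted p = 0.0972). SNAI3 was at 0.992 ± 0.303 and 1.2 ± 0.02 CPM and did not pass the test. HMGA2, a chromatin protein that acts upstream of SNAI1, was at 24.2, 51.8 and 50.1 CPM in vehicle and 37.4, 35.7 and 36.0 CPM in TGF-beta libraries. It did not pass the test with all libraries (edgeR adjusted p = 0.654) but did without vehicle replicate 1 (log2 fold change -0.49, edgeR adjusted p = 6.48e-10). The lower count was 3 without that library. Leaving out either of the other 2 vehicle libraries, or the library of TGF-beta replicate 1 or 2, gave a lower count of 1.

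Relatives of the guardians were called lower more often than higher. Of 15 other epithelial transcription factors, 14 were tested, 1 was higher and 5 were lower (median -0.61), against 4 and 9 without vehicle replicate 1. The shares over all genes, with all libraries, were 19.7% higher and 20.4% lower. Without vehicle replicate 1, 5428 of all 21781 genes tested were higher and 5556 lower. GRHL3 fell from 2.77 ± 0.45 to 1.59 ± 0.36 CPM (-0.79, edgeR adjusted p = 0.00679), as GRHL2 did. GRHL1 was at 10.5, 6.23 and 6.21 CPM in vehicle and 8.87, 6.77 and 8.15 CPM after TGF-beta (log2 fold change 0.06, edgeR adjusted p = 0.876), and without vehicle replicate 1 it passed as higher (0.34, edgeR adjusted p = 0.00453). FOXA1, a pioneer factor of epithelial enhancers, fell from 3.27 ± 0.57 to 1.63 ± 0.34 CPM (log2 fold change -1.0, edgeR adjusted p = 0.00167). EHF, an ETS factor, was at 10.8, 3.97 and 3.43 CPM in vehicle and 1.18, 1.26 and 1.39 CPM after TGF-beta (-2.22, edgeR adjusted p = 0.0421), a call lost without vehicle replicate 2 or any 1 of the TGF-beta libraries (edgeR adjusted p = 0.0542 to 0.120) and without a filter (0.0982). Without vehicle replicate 1 the log2 fold change of EHF was -1.54 (edgeR adjusted p = 5.92e-10), a fold more than 1.5 times smaller. OVOL3 was at 0.334 ± 0.121 and 0.345 ± 0.092 CPM and did not pass.

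Epithelial genes that SNAI and ZEB proteins are known to repress, among them junction genes, were split. Of 22 tested, 3 were higher and 8 lower (median -0.21), beside 19.7% of all genes higher and 20.4% lower. Without vehicle replicate 1 the higher count was 7, and without TGF-beta replicate 2 the lower count was 5. Over all genes, these fits gave 5428 of 21781 higher and 3055 of 21185 lower. E-cadherin, CDH1, was at 306, 219 and 204 CPM in vehicle and 152, 144 and 153 CPM after TGF-beta (-0.70, edgeR adjusted p = 0.0261). That call was lost without any 1 of the TGF-beta libraries (edgeR adjusted p = 0.0724 to 0.0739) and without a filter, though the groups did not overlap. Without vehicle replicate 1, which was the highest, the log2 fold change of CDH1 was -0.50 (edgeR adjusted p = 3.11e-11). EPCAM, an epithelial adhesion molecule, fell from 13.5 ± 2.10 to 9.62 ± 0.18 CPM (-0.48, edgeR adjusted p = 0.00391). TJP3, a tight junction scaffold, fell most of the list, from 7.30, 4.61 and 4.28 to 0.896, 0.904 and 0.929 CPM (-2.56, edgeR adjusted p = 3.14e-05, and -2.29 without vehicle replicate 1). CLDN4, a claudin, rose from 10.2 ± 1.87 to 15.3 ± 1.41 CPM (0.58, edgeR adjusted p = 0.00884). TJP1, the related scaffold of TJP3, rose from 252 ± 8.50 to 301 ± 2.98 CPM (0.26, edgeR adjusted p = 0.000638) and was named after its value was seen.

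SNAI and ZEB proteins bind the E-box CAGGTG, which reads CACCTG on the other strand, so RefSeq windows from 250 bases before to 50 after a gene's start (GRCh38.p14) were searched on both strands. Of 27305 genes with a window, 24.1% held it. Of the 22 repressed epithelial genes, 13 had a window, CDH1 not among them, and 10 of these held the E-box (76.9%). It was held by 6 of 13 other epithelial factors (46.2%), 1 of 9 mesenchymal genes (11.1%) and 0 of 9 other EMT factors. The repressed genes were listed as known targets of proteins that bind this E-box, so a high share may be built into the list. Genes differ in their number of windows, and more windows give more room for a match. The E-box occurred in windows of TJP3, which fell, of TJP1, which rose, and of ZEB1, which did not pass the test. These letters were not in the ZEB2 window. One upstream window of each of the 3 is shown with the E-box in capitals, running 5′ to 3′ on the gene's strand: TJP3 at chr19:3721487-3721736 (plus strand), TJP1 at chr15:29969050-29969299 (minus strand) and ZEB1 at chr10:31318167-31318416 (plus strand). Before the start that each shown window belongs to, the E-box begins at position -7 for TJP3, -88 for TJP1 and -57 for ZEB1. These are single annotated starts among several: upstream of the start, 1 of 2 TJP3 windows, 1 of 4 TJP1 windows and 2 of 7 ZEB1 windows held it. The TJP3 window shown belongs to a start inside the gene, and the window nearest the gene's 5′ end held none.
TJP3: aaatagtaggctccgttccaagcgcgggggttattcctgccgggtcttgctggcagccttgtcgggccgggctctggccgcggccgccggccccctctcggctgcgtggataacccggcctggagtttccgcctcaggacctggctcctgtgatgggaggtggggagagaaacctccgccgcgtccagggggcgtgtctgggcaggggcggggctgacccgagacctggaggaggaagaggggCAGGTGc
TJP1: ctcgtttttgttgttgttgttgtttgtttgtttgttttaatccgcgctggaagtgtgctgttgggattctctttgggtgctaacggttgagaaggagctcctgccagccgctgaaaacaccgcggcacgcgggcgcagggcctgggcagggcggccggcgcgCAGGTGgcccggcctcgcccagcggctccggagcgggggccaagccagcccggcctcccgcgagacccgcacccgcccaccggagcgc
ZEB1: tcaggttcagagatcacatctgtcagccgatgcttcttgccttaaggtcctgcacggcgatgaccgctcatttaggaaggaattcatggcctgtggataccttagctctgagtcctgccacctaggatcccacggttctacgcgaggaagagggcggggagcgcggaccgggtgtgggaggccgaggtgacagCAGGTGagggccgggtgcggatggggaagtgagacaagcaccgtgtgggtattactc

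Most mesenchymal genes were called higher: 13 of 15 were higher and 1 lower (median 1.09, against -0.01 over all genes). Of all genes, 19.7% were called higher and 20.4% lower. N-cadherin, CDH2, rose from 320 ± 8.22 to 536 ± 9.70 CPM (0.74, edgeR adjusted p = 2.63e-07). Vimentin, VIM, an intermediate filament protein of mesenchymal cells, rose by a log2 fold change of 0.66 (edgeR adjusted p = 0.00302), and by 0.54 without vehicle replicate 1. S100A4, often used as a marker of fibroblasts in EMT, fell by 1.04 on the log2 scale (edgeR adjusted p = 0.00246). The lower count was 2 without vehicle replicate 1. The summed level of 7 fibroblast markers was 195 to 214 CPM in vehicle and 400 to 439 CPM after TGF-beta, while DCN, LUM and DES stayed under 1 CPM in every library. The rise in that sum lay in COL1A2 (28.3 to 143 CPM), PDGFRB (66.9 to 135 CPM) and THY1 (105 to 134 CPM), and PDGFRA was called lower (6.84 to 4.17 CPM, edgeR adjusted p = 0.000279). The part of these markers in the mesenchymal count was not tested.

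The targets and fellow splicing factors of the ESRP proteins could be read for the level of the gene only, since splicing was not measured. Of 14 genes with ESRP-spliced exons, 13 were tested, 2 were higher and 3 lower (median -0.00414), and 6 were lower without vehicle replicate 1. With all libraries, these 5 of 13 called are near the 40.1% of all genes called. ENAH, an actin regulator, rose (0.75, edgeR adjusted p = 1.42e-05), and RALGPS2, a Ral exchange factor, fell by 0.42 on the log2 scale (edgeR adjusted p = 0.00305). CTNND1, p120-catenin, fell by 0.18 on the log2 scale (edgeR adjusted p = 0.00394). CD44 was at 77, 143 and 140 CPM in vehicle and 123, 123 and 125 CPM after TGF-beta. It did not pass the test with all libraries (log2 fold change 0.04) and was called lower without vehicle replicate 1 (-0.20, edgeR adjusted p = 0.000101). FGFR2 had 0 to 3 reads per library. Of 12 other splicing factors, 6 were higher and 2 lower (median 0.13), and 4 were lower without vehicle replicate 1. All genes tested stood at 19.7% higher and 20.4% lower with all libraries. Of all 21781 genes tested without vehicle replicate 1, 5556 were lower. RBM47, an epithelial RNA-binding protein, fell from 18.6 ± 2.24 to 8.43 ± 0.25 CPM (-1.14, edgeR adjusted p = 4.42e-06). QKI, which promotes mesenchymal exon choice and circular RNAs, rose from 147 ± 7.07 to 190 ± 7.79 CPM (0.37, edgeR adjusted p = 0.000205). RBFOX2 did not pass (165 ± 8.81 and 168 ± 1.91 CPM).

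The partners and turnover enzymes of the SNAI and ZEB proteins are given beside 19.7% of all genes called higher and 20.4% lower. Of 18 corepressors and partners, 5 were higher and 6 lower (median -0.02), and 3 were lower without TGF-beta replicate 2. LOXL2, a lysyl oxidase that binds and stabilises Snail, rose from 116 ± 10.5 to 169 ± 7.26 CPM (0.54, edgeR adjusted p = 0.000115). LIMD1, an Ajuba-family LIM protein and corepressor of Snail, fell from 123 ± 17.3 to 61.4 ± 0.92 CPM (log2 fold change -1.0, edgeR adjusted p = 0.000154). CTBP1, a corepressor of the ZEB proteins, did not pass (122 ± 6.55 and 125 ± 5.13 CPM). Of 19 kinases and ubiquitin enzymes of SNAI and ZEB turnover, 4 were higher and 4 lower (median 0.01), and 7 were lower without vehicle replicate 1. With all libraries, these shares were near those of all genes. Over all genes, 5556 of 21781 were lower without vehicle replicate 1 and 3055 of 21185 without TGF-beta replicate 2. FBXL14, a ubiquitin ligase subunit for Snail and Slug, fell from 10.9 ± 0.70 to 5.19 ± 0.64 CPM (-1.08, edgeR adjusted p = 1.45e-05). SIAH2, another ubiquitin ligase, rose (0.40, edgeR adjusted p = 0.000767). GSK3B, the kinase that marks Snail for degradation, did not pass with all libraries (116 ± 13.8 and 122 ± 1.09 CPM) and was called higher without vehicle replicate 1 (0.17, edgeR adjusted p = 0.00117).

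**Figure D5:**
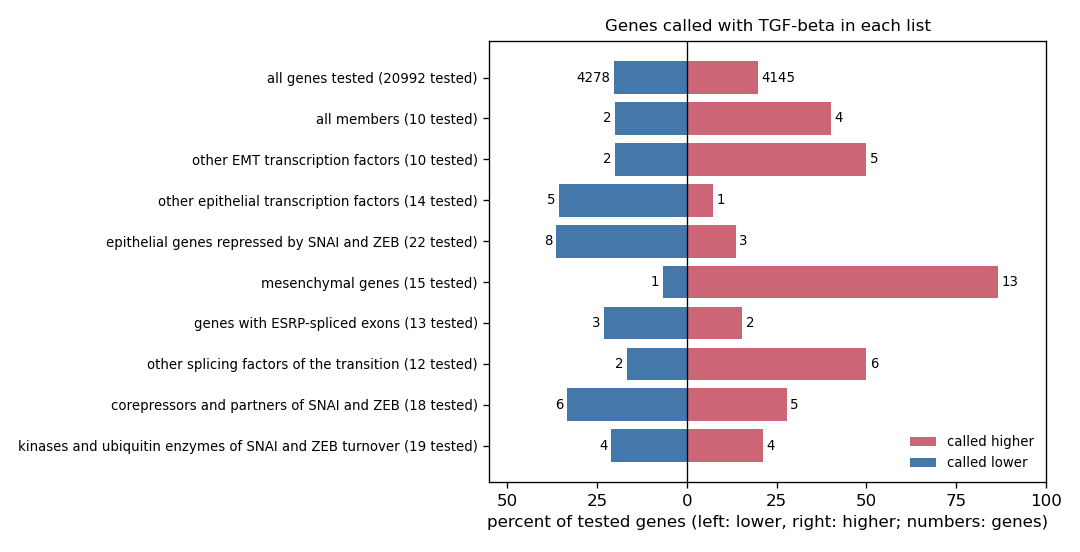
Percent of tested genes called lower (left, blue) and higher (right, red) with TGF-beta in the 10 members, 8 lists and all genes, with the number of genes at the bars. The mesenchymal list has 13 of 15 genes higher, against 19.7% of all genes, while the members have 4 of 10.

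The genes whose profile over the 6 libraries lay nearest to each member were found by the root mean square distance of log2 CPM, each profile centred on its own mean. Nearest to SNAI1 was ITGA11, an integrin subunit for collagen, at a distance of 0.013 and a log2 fold change of 3.19. Nearest to SNAI2 was QPCT at 0.0524, and nearest to ZEB2 was ELF4, an ETS factor, at 0.0219. ZEB1 lay nearest to PTPRS (0.0212) and TWIST1 to NAMPT (0.0511). GRHL2 lay nearest to MND1 (0.0683), OVOL2 to PHYH (0.0203) and ESRP2 to ANXA4 (0.0146). OVOL1 and ESRP1 had no neighbour as close, with PIK3IP1 at 0.189 and IFIT1 at 0.106. OVOL1 could not be a neighbour itself, as candidates needed a mean of at least 5 CPM. No other member was among the 3 nearest genes of a member.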

How the data were processed

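RNA sequencing of 6 H69 libraries was analysed from 1 deposited table of 64253 genes. Per the submitters' processing notes, the tools were bcl2fastq, STAR 2.6.1 and Subread's featureCounts, and the build was hg38. The file headers name a count and an RPKM column by the authors for each library. The count columns hold whole numbers and were taken as raw reads per gene. From the values, the RPKM columns scale counts to gene length and a library total. The table's counts make up 41.9% to 43.3% of that total. The strand setting, multi-mapped reads and annotation release are not given in the sources used here.

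Counts were fitted in R 4.3.3 with edgeR 4.0.16 (TMM, filterByExpr with a minimum count of 10, robust quasi-likelihood test, Benjamini-Hochberg over 20992 genes, no block). The SE is the log2 fold change over the square root of F, and intervals are 95%. The fit was also run on simulated counts with few changed genes and no library set apart. That setting is unlike these data, and its outcome is not reported here. The 14 alternatives were RLE, library totals alone, no filter, 1 CPM in 3 libraries, DESeq2 1.42.0, limma 3.58.1 on log2(RPKM + 1) and log2(RPKM + 0.1), computed from the deposited RPKM for genes whose mean reached 0.5, a replicate block, and each library left out.

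The members and the 9 lists (143 genes) were chosen with earlier results of these data known. The named genes are the members, the called gene with the largest rise and fall of each list (mean of at least 1 CPM), a set chosen for its role, and the genes of nearest profile (mean of at least 5 CPM). Some genes that this rule names are not reported here. Promoter windows and microRNAs came from RefSeq and 3′ UTRs from GENCODE v29.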

Additional observations from a re-analysis of the deposited data

How the results depend on the processing

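The calls of SNAI1, SNAI2, ZEB2 and GRHL2 kept their direction and their side of the threshold in all 14 alternatives, and that of OVOL1 in those that could test it. Counts over all genes were 2698 higher and 7282 lower with library totals alone, and 2406 and 2402 higher in limma on log2(RPKM + 1) and log2(RPKM + 0.1). With library totals alone, 2 mesenchymal genes were lower, genes with ESRP-spliced exons stood at 1 higher and 6 lower, other splicing factors at 3 higher and 4 lower, and turnover enzymes at 2 higher and 7 lower. In both limma fits, 3 other EMT factors, 1 gene with ESRP-spliced exons and 2 turnover enzymes were higher, 1 other EMT factor and 0 non-coding genes were lower, and 2 (pseudocount 1) and 3 (pseudocount 0.1) other epithelial factors were lower. These limma fits tested 15143 genes, as a mean of 0.5 RPKM was required. TCF4, ZEB1-AS1, GRHL3, FOXA1 and EHF lay under that mean, so they were untested there rather than tested and not called. RLE and DESeq2 gave 1 other EMT factor lower. Without a filter, 2 other epithelial factors were higher and 2 mesenchymal genes lower. The cause of these moves was not tested otherwise.

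Leaving out 1 library at a time gave 1 to 3 members lower. It gave 1 to 3 other EMT factors lower, 1 to 4 other epithelial factors higher and 4 to 9 lower, and 2 to 7 repressed epithelial genes higher and 5 to 10 lower. It gave 1 to 2 mesenchymal genes, 3 to 6 genes with ESRP-spliced exons, 2 to 4 splicing factors, 3 to 7 corepressors and 3 to 7 turnover enzymes lower. Over all genes, the same fits gave 3204 to 5428 higher and 3055 to 5556 lower, of 21141 to 21822 tested. Both all-gene counts were highest without vehicle replicate 1 and lowest without TGF-beta replicate 2.

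Genes that did not pass the test changed sign. The log2 fold change without 1 library ran from -0.11 to 0.12 for OVOL2, -0.39 to 0.086 for ESRP1, -0.072 to 0.34 for GRHL1, -0.16 to 0.33 for OVOL3, -0.20 to 0.19 for CD44, -0.016 to 0.060 for RBFOX2 and -0.017 to 0.059 for CTBP1. With library totals alone it was -0.070 for GRHL1, -0.037 for OVOL3, -0.085 for CD44, -0.10 for RBFOX2, -0.10 for CTBP1 and -0.059 for GSK3B. In the limma fits with pseudocounts of 1 and 0.1 it was -0.052 and -0.058 for RBFOX2, -0.052 and -0.059 for CTBP1, and -0.012 and -0.013 for GSK3B.

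The labels do not say whether the replicate numbers pair the samples. Deviations of same-numbered libraries correlated at 0.0652, 0.0623 and 0.0129 across genes. For TGF-beta replicates 1 and 2 the same-numbered vehicle library correlated best, and for TGF-beta replicate 3 it was vehicle replicate 2 (0.0136). Correlations this small, from 3 libraries per group, cannot decide whether the samples were paired. With the replicate number as a block, 4 members were higher and 2 lower, all genes stood at 4247 higher and 4330 lower, and 2 mesenchymal genes were lower. Depth limits OVOL1 most, at 16 to 48 reads per library.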
